A study of Homo sapiens with 6 samples.

Results

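Nuclear transport genes were examined in Kasumi-1 cells after homoharringtonine (HHT). They were picked by gene symbol and comprised the nucleoporins with a NUP number, the importins, transportins and exportins, and the regulators of the small GTPase Ran. Probe sets annotated to 1 such gene, pseudogenes left out, gave 54 of the 19775 genes with a single-gene probe set on the array, covered by 161 probe sets. Of the 54, IPO9-AS1 was taken by its symbol only and is a transcript antisense to IPO9. Kasumi-1 is a human acute myeloid leukaemia line with the t(8;21) translocation. The compared groups were 3 arrays of cells kept for 24 h in 20 nM HHT, a plant alkaloid that blocks translation elongation, and 3 arrays of cells kept for 24 h with vehicle. All arrays came from this single line, and the labels do not say whether the arrays of a group were separate cultures, so the p-values measure only the spread between these arrays, which may be technical.

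The nuclear pore is a large ring of proteins that spans the nuclear envelope. Its scaffold is built from the Y-shaped outer ring complex and an inner ring, its channel is filled with flexible proteins that repel most large molecules, and filaments on the cytoplasmic side and a basket on the nuclear side serve as docking sites. Import and export receptors of the importin beta family carry proteins and some RNAs through the channel, importin alpha proteins act as adaptors for cargo with a classical import signal, and Ran loaded with GTP in the nucleus releases imported cargo and binds exported cargo. In leukaemia NUP98 and NUP214 are known as partners in fusion genes, and XPO1 is a drug target.

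Values are deposited log2 signals, so a change of 1 is a doubling or halving of signal. The word called stands for an adjusted p under 0.05 in the limma fit over all 32768 probe sets tested, and rose and fell are used of called genes alone. Each gene is given by its brightest single-gene probe set, and levels of different genes are not compared because probe sets differ in their response. Of the markers listed for the line, KIT, MPO, RUNX1T1, PTPRC and CD34 had mean log2 signals between 8.03 and 14.22 in HHT and between 9.20 and 14.83 in vehicle. Of those listed for other cells, CD3E, MS4A1, ALB and COL1A1 had means up to 6.62 in HHT and 7.48 in vehicle, whereas EPCAM, an epithelial marker, was at 12.93 in HHT and 13.69 in vehicle. The part of that signal in the results was not tested. Spiked hybridisation controls, measured by 18 probe sets, averaged 11.70 ± 0.0598 in HHT and 11.98 ± 0.0282 in vehicle (SD, n = 3 each). Their difference of -0.28 had an exact permutation p of 0.1 (two-sided), the smallest that 3 against 3 allows. Median log2 signals ran from 5.53 to 5.77 in HHT and from 5.82 to 5.96 in vehicle. Calls were therefore also made with 3 other scalings between arrays: equal medians, equal hybridisation controls and quantile normalization.

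More of the transport genes fell than rose. Of the 52 that passed the filter on dim probe sets, 30 fell, 13 rose and 9 were not called, with a median log2 change of -0.34. In these bulk samples fewer cells of a kind and less RNA per cell cannot be told apart. Over all 13572 genes tested, 24.2% fell and 29.6% rose, with a median change of zero to 2 decimals. The groups did not overlap for 46 of the 52 transport genes, against 62.2% of all genes. A called change of at least 1 log2 unit in size was found for 9 of the 52, against 15.5% of all genes. The remaining pair of genes, IPO11 and IPO9-AS1, had single-gene probe sets below the filter level and was not tested. KPNA7 and NUTF2 had no single-gene probe set and are not among the 54.

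**Figure D1:**
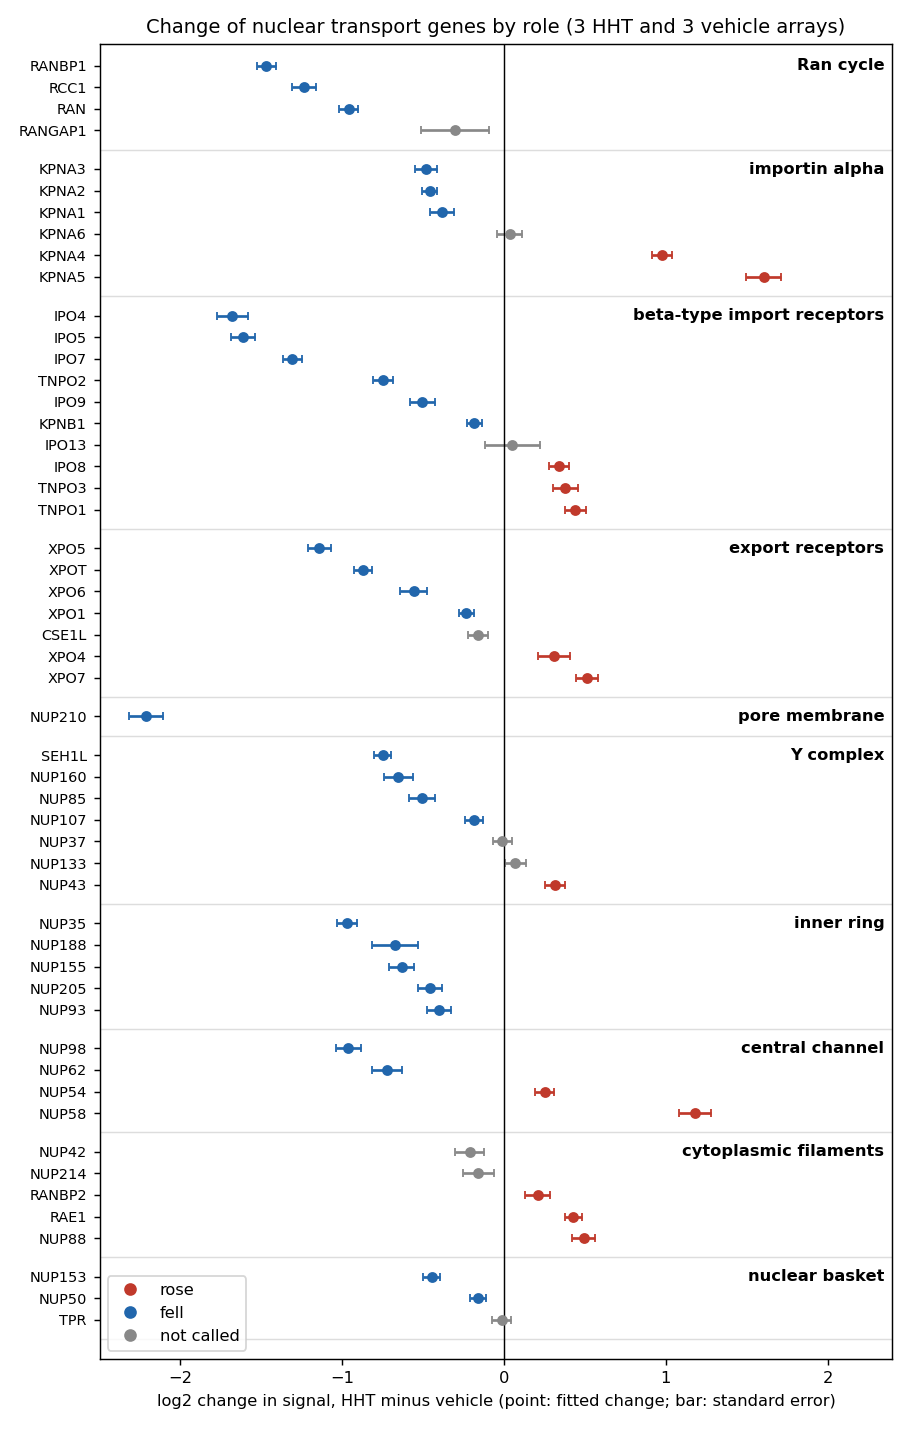
Fitted log2 change in signal (horizontal axis, HHT minus vehicle, bars: standard error) of the 52 tested transport genes, grouped by role, from 3 HHT and 3 vehicle arrays. The lowest value is that of NUP210 at -2.21 and the highest that of KPNA5 at 1.60. All 5 inner ring genes are below 0 as deposited, but only NUP35 and NUP155 of them were still called lower with equal medians. Of 5 genes of the cytoplasmic filaments 3 rose, with RANBP2 close to the threshold.

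The number that fell depended on the scaling. With equal medians, 14 rose and 16 fell (all genes: 37.3% and 12.7%). With equal hybridisation controls, 17 rose and 20 fell (all genes: 41.6% and 12.8%). After quantile normalization, 16 rose and 26 fell (all genes: 29.8% and 22.9%). The median change of all genes was 0.24, 0.28 and 0.05 under these 3 scalings. Under all 4 scalings and by the brightest probe set, 12 of the 52 rose and 16 fell, against 27.4% and 12.1% of all genes. Those that fell throughout were RAN, RANBP1, RCC1, IPO4, IPO5, IPO7, TNPO2, XPO5, XPOT, NUP210, NUP35, NUP62, NUP98, NUP155, NUP160 and SEH1L. Those that rose throughout were KPNA4, KPNA5, IPO8, TNPO1, TNPO3, XPO7, NUP43, NUP54, NUP58, NUP88, RAE1 and RANBP2. Of these 12, IPO8, XPO7, NUP58 and RANBP2 were not called from the means of a gene's probe sets. From such means 8 of the 52 rose, against 3475 of all 13572 genes.

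**Figure D2:**
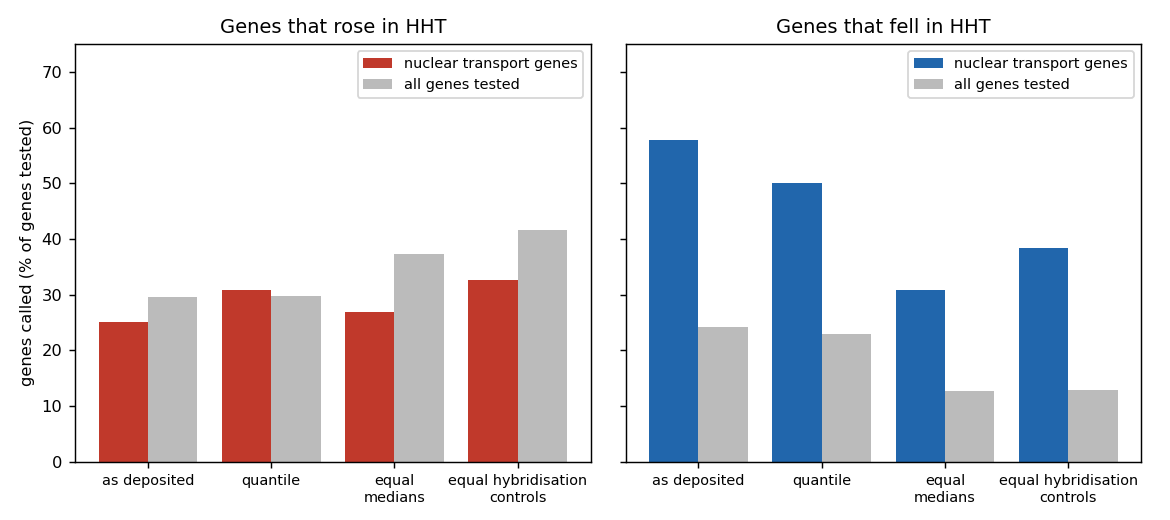
Share of genes called higher (left) and lower (right) in HHT, in percent of genes tested, for the 52 transport genes (coloured bars) and all genes tested (grey bars) under 4 scalings between arrays. The share of transport genes that fell is 57.7% as deposited and 30.8% with equal medians, and lies above that of all genes under each of the 4.

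Because genes that fell and rose included close relatives, the sequences before their start sites are shown first. They are the promoter windows, from 250 bases before to 50 bases after the gene's start, of RAN and IPO4, which fell, and of the members of 3 pairs that moved in opposite directions, as far as the sequence table holds them. Sequences are from RefSeq on GRCh38.p14, read 5′ to 3′ along the gene's strand, and capitals mark CACGTG, the E-box to which MYC and related factors are known to bind.
RAN (chr12:130871816-130872115, plus strand): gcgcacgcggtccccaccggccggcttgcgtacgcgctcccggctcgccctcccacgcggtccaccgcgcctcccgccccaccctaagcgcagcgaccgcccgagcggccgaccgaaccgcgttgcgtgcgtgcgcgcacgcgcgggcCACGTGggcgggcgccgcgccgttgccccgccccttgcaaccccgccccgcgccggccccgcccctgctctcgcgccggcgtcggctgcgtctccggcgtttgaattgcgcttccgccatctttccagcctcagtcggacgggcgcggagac
IPO4 (chr14:24188767-24189066, minus strand): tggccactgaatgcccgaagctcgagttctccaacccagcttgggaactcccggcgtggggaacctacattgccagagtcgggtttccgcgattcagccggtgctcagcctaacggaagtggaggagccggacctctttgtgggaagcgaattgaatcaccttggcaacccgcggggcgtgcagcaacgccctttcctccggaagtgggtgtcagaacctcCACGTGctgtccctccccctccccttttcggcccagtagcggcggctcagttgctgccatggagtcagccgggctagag
IPO7 (chr11:9384402-9384701, plus strand): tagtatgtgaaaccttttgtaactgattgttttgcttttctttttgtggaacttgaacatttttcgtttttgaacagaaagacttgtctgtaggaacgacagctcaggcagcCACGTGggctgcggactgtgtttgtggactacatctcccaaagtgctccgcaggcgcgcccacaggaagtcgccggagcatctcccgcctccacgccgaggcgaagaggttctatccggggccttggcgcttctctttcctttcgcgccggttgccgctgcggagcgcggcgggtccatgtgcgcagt
IPO8 (chr12:30695820-30696119, minus strand): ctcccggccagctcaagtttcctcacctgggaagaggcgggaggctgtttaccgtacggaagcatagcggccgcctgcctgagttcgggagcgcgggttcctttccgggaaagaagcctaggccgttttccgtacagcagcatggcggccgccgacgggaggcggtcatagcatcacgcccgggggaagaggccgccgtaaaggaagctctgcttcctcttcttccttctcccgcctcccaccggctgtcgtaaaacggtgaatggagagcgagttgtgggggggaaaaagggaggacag
TNPO2 (chr19:12723883-12724182, minus strand): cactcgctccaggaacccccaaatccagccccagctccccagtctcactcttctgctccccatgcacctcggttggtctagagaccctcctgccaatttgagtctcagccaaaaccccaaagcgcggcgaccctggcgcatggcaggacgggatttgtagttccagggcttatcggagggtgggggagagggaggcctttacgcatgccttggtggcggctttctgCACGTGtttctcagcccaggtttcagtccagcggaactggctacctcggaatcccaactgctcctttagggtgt
TNPO1 (chr5:72816411-72816710, plus strand): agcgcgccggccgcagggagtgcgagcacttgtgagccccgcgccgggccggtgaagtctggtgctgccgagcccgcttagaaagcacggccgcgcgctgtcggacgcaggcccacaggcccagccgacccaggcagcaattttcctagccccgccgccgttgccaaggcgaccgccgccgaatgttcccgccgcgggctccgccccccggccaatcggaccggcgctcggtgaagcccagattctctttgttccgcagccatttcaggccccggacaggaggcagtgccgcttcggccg
KPNA3 (chr13:49792633-49792932, minus strand): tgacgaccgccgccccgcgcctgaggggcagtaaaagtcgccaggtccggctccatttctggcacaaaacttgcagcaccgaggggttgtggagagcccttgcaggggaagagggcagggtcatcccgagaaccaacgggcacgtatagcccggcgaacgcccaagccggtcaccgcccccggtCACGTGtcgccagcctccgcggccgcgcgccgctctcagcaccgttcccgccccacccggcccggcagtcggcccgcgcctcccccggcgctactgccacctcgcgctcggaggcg

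The windows of IPO7, TNPO2 and KPNA3, which fell, hold CACGTG, and those of IPO8 and TNPO1, which rose, do not. Every printed window of a gene that fell holds CACGTG, which is not typical of the genes that fell. The windows of NUP210, IPO5, RCC1 and XPO5, which fell and are not printed, lack it. Promoters were matched for 46 of the 52 tested transport genes, with both strands searched. CACGTG, which reads the same on both strands, was in 7 of the 28 that fell (RAN, IPO4, IPO7, TNPO2, KPNA3, NUP50 and NUP188), in none of the 9 that rose and in none of the 9 not called. Of all promoters of this length in the table, 7.43% held it, as did 9.98% of those of all genes tested, 13.7% of those of all genes that fell and 8.43% of those of all genes that rose. Of the 7 transport genes that fell and held CACGTG, KPNA3, NUP50 and NUP188 were not called with equal medians. Groups of 9 promoters are too small for a count of none to be read as a difference. CCGGAAG, a site for ETS factors, was in 9 of the 28 that fell and in 4 of the 9 that rose, against 18.0% of all genes tested. GCATGCGC, the core of the NRF1 site, was in 4 that fell (RCC1, NUP50, NUP62 and NUP107) and in none that rose. It was in 5.22% of all genes tested and in 5.49% of all genes that fell. NUP50 and NUP107 were not called under the 3 other scalings. TGACGTCA, the cyclic AMP response element, was in 3 promoters of genes not called (NUP42, NUP133 and NUP214), against 3.09%. CCAAT was in 12 that fell and 3 that rose, against 36.7%, and GGGCGG, the GC box, in 16 that fell and 4 that rose, against 66.6%. No motif searched contains another. These are matches of letters in a window, not sites shown to be bound.

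Counts by role, here and below, are as deposited and stand beside 24.2% of all genes that fell and 29.6% that rose. Of the 4 measured genes of the Ran cycle, 3 fell. RANBP1, which binds Ran loaded with GTP and aids its hydrolysis in the cytoplasm, had log2 signals of 12.26, 12.33 and 12.43 in HHT, against 13.86, 13.78 and 13.78 in vehicle. Every HHT array was below every vehicle array, and the signal fell 2.77-fold (log2 change -1.47, SE 0.0588, limma adjusted p = 4.30e-08). RCC1, the chromatin-bound exchange factor that loads Ran with GTP, had 10.09, 10.11 and 10.18 in HHT, against 11.48, 11.32 and 11.30 in vehicle, a log2 change of -1.24 (SE 0.0760, adjusted p = 5.31e-07). RAN itself had 13.64, 13.69 and 13.81 in HHT, against 14.73, 14.67 and 14.63 in vehicle, a log2 change of -0.96 (SE 0.0564, adjusted p = 3.95e-07). Neither gene's groups overlapped. The second probe sets of all 3 genes also fell, by 0.83 for RANBP1, by 1.13 for RCC1 and by 1.16 for RAN. RANGAP1, which activates the GTPase of Ran at the cytoplasmic side of the pore, was not called by its brightest probe set, with 8.63, 7.68 and 8.30 in HHT against 8.60, 8.48 and 8.45 in vehicle (-0.31, SE 0.210, adjusted p = 0.263). The HHT arrays of that probe set were widely spread and overlapped vehicle. Without HHT replicate 2 its change was -0.04. Both dimmer RANGAP1 probe sets fell, with log2 changes of -0.76 (adjusted p = 0.00173) and -0.51 (adjusted p = 0.0302), and the mean of its probe sets was called at -0.53 (adjusted p = 0.0163).

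The importin alpha adaptors moved apart: 3 of 6 fell, 2 rose and 1 was not called, and their median change was -0.17. KPNA5 had the largest increase of the 52 genes. Its log2 signals were 11.33, 11.38 and 11.30 in HHT, against 9.49, 9.76 and 9.96 in vehicle, a 3.04-fold higher signal (1.60, SE 0.109, adjusted p = 9.73e-07). KPNA5 belongs to the same subfamily as KPNA1 and KPNA6, and its other probe sets rose by 1.59 and 0.80. KPNA4 had 13.15, 13.25 and 13.28 in HHT, against 12.33, 12.26 and 12.17 in vehicle (0.98, SE 0.0626, adjusted p = 6.87e-07), and all 4 of its tested probe sets rose. KPNA3, its closest relative, had 11.92, 11.92 and 11.85 in HHT, against 12.26, 12.48 and 12.40 in vehicle (-0.48, SE 0.0676, adjusted p = 0.000160). KPNA3 and KPNA4 are known as carriers of NF-kB subunits, the pathway named in the study's title. KPNA2, an adaptor abundant in dividing cells, had 13.71, 13.74 and 13.69 in HHT, against 14.16, 14.15 and 14.21 in vehicle (-0.46, SE 0.0466, adjusted p = 1.52e-05). The calls of KPNA3 and KPNA2 rested on the scaling: KPNA3 was at -0.24 once medians and at -0.20 once spiked controls were equalised, and KPNA2 was at -0.22 once medians were equalised and at -0.10 after quantile normalization, none of these called. KPNA6 did not pass the test, with 10.49, 10.36 and 10.48 in HHT and 10.47, 10.34 and 10.42 in vehicle (0.03, adjusted p = 0.752). This probe set was called higher once the spiked controls were equalised (0.32, adjusted p = 0.0113). The dimmest KPNA6 probe set, with 6.79, 6.95 and 6.90 in HHT against 7.71, 7.40 and 7.46 in vehicle, fell by 0.64 (adjusted p = 0.0153). Those at 0.09 and 0.11 were not called, nor was the mean of its probe sets (-0.10).

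KPNA1 had probe sets that disagreed. Its brightest had 10.90, 10.83 and 10.73 in HHT, against 11.29, 11.15 and 11.18 in vehicle, and fell by 0.38 (adjusted p = 0.00148). Of its other 5 tested probe sets, another 2 fell, by 0.41 and 0.32, whereas 1 rose by 0.68 (adjusted p = 0.000380), with 9.77, 9.65 and 9.58 in HHT against 8.98, 9.13 and 8.85 in vehicle. The arrays of this probe set were separated by group just as clearly as those of the brightest. The mean of its probe sets was not called, so no direction is given for the gene as a whole.

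Of 10 import receptors of the beta family, 6 fell, 3 rose and 1 was not called. Of all genes, 24.2% fell and 29.6% rose. The 3 largest decreases were those of IPO4, IPO5 and IPO7. IPO4, a histone carrier, had 8.31, 8.39 and 8.36 in HHT, against 10.11, 10.02 and 9.97 in vehicle, a 3.21-fold lower signal (-1.68, SE 0.0951, adjusted p = 3.22e-07). IPO5, which imports ribosomal proteins and histones, had 10.35, 10.38 and 10.27 in HHT, against 11.84, 12.06 and 11.94 in vehicle (-1.61, SE 0.0754, adjusted p = 1.04e-07). All 5 IPO5 probe sets fell, between -1.68 and -0.67. IPO7, also a carrier of ribosomal proteins and, together with KPNB1, of linker histone, had 11.91, 12.05 and 12.01 in HHT, against 13.30, 13.29 and 13.31 in vehicle (-1.31, SE 0.0561, adjusted p = 6.16e-08). All 4 of its probe sets fell, the least of them by 1.13. None of these 3 genes had an HHT array within the range of vehicle.

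TNPO2, a receptor for RNA-binding proteins, had 11.12, 11.06 and 11.03 in HHT, against 11.85, 11.77 and 11.85 in vehicle (-0.75, SE 0.0620, adjusted p = 3.65e-06). IPO9, a carrier of core histones, fell by 0.51 (adjusted p = 0.000264), a call lost once medians were equalised (-0.27). TNPO1, the founding transportin, which imports hnRNP proteins, went the other way, with 13.42, 13.55 and 13.57 in HHT against 13.05, 12.99 and 13.18 in vehicle (0.44, SE 0.0651, adjusted p = 0.000241). Of its 9 tested probe sets 6 rose and none fell. TNPO3, which imports splicing factors of the SR family, had 11.73, 11.81 and 11.95 in HHT, against 11.39, 11.42 and 11.55 in vehicle (0.38, SE 0.0749, adjusted p = 0.00174), and all 3 of its probe sets rose. IPO8, the closest relative of IPO7, had 12.64, 12.63 and 12.60 in HHT, against 12.30, 12.36 and 12.18 in vehicle (0.34, SE 0.0613, adjusted p = 0.000981), a call lost when the mean of its probe sets was used. IPO13, which works in both directions, was not called (0.05, adjusted p = 0.832).

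KPNB1, the partner of importin alpha and the main import receptor, had 14.35, 14.32 and 14.29 in HHT, against 14.54, 14.49 and 14.49 in vehicle. The difference of -0.18 (SE 0.0458, adjusted p = 0.00724) was called as deposited, but KPNB1 was at 0.06 once medians were equalised and at 0.10 once the spiked controls were, neither called, and rose by 0.21 after quantile normalization (adjusted p = 0.00205). Of its other 5 probe sets 1 fell and the remaining 4 were not called. Without the variance trend KPNB1 was not called (adjusted p = 0.102). Its direction thus depended on the scaling.

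Among 7 export receptors, 4 fell, 2 rose and 1 was not called, beside 24.2% of all genes that fell and 29.6% that rose. XPO5, the exporter of microRNA precursors, had 9.95, 10.00 and 9.99 in HHT, against 11.09, 11.08 and 11.19 in vehicle (-1.14, SE 0.0710, adjusted p = 5.71e-07), and its other probe sets fell by 1.18 and 1.11. XPOT, the exporter of transfer RNA, had 12.97, 13.12 and 13.05 in HHT, against 13.89, 13.92 and 13.94 in vehicle (-0.87, SE 0.0534, adjusted p = 5.11e-07). Its dimmer probe set, with 11.08, 11.02 and 10.96 in HHT against 12.51, 12.56 and 12.48 in vehicle, also fell (adjusted p = 4.62e-08). XPO6, the exporter of actin, fell by 0.56 (adjusted p = 0.000264), a call lost once medians were equalised (-0.32). XPO7 had 11.71, 11.69 and 11.84 in HHT, against 11.27, 11.17 and 11.26 in vehicle (0.51, SE 0.0676, adjusted p = 0.000106), although a dim XPO7 probe set, with 6.50, 6.30 and 5.54 in HHT against 6.90, 6.96 and 6.99 in vehicle, fell by 0.83 (adjusted p = 0.0372). The remaining XPO7 probe set had a change of 0.06 and the mean of all 3 one of -0.09, neither called, so XPO7 has no single direction here. XPO4, an exporter of the translation factor eIF5A, rose by 0.31 (adjusted p = 0.0268), a call lost after quantile normalization (0.19) and without HHT replicate 1, HHT replicate 3 or vehicle replicate 1.

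XPO1, the general exporter of proteins with a leucine-rich export signal, had 14.07, 14.09 and 14.01 in HHT, against 14.25, 14.31 and 14.31 in vehicle. The difference of -0.23 (SE 0.0477, adjusted p = 0.00217) was called as deposited. The dimmer XPO1 probe sets, at -0.19 and -0.05, were not called, nor was the mean of its probe sets (-0.16, adjusted p = 0.415). The call was also lost without the variance trend (adjusted p = 0.0557). Equalising medians put XPO1 at 0.01 and equalising the spiked controls at 0.05, neither called, and it rose by 0.14 after quantile normalization (adjusted p = 0.0453). CSE1L, the exporter that returns importin alpha to the cytoplasm, had 13.54, 13.41 and 13.59 in HHT, against 13.72, 13.59 and 13.71 in vehicle. Its groups did not overlap, but the change of -0.16 (SE 0.0616, adjusted p = 0.0544) was not called. Of its 3 other probe sets 2 fell, by 0.18 and 1.19, and the mean of its probe sets was called lower (-0.41, adjusted p = 0.000499). Under the 3 other scalings, in the order given above, the brightest was at 0.08, 0.12 and 0.17, and only the last, from quantile normalization, was called (adjusted p = 0.0205). KPNB1, XPO1 and CSE1L, the receptors of the classical import and export routes, thus had changes between -0.23 and 0.21 under the 4 scalings by their brightest probe sets, and their sign turned with the scaling.

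The ratio of related genes within an array is untouched by any factor applied to the whole array, and 6 pairs were compared in this way. The absolute ratio has no meaning across probe sets, but its difference between groups does. The log2 ratio of IPO7 over IPO8 was -0.72, -0.58 and -0.59 in HHT, against 1.00, 0.93 and 1.13 in vehicle, a change of -1.65 (SE 0.0957, limma adjusted p = 0.000491). For KPNA3 over KPNA4 it was -1.23, -1.34 and -1.43 in HHT, against -0.06, 0.22 and 0.23 in vehicle, a change of -1.46 (SE 0.120, adjusted p = 0.000842). For TNPO1 over TNPO2 it was 2.30, 2.49 and 2.54 in HHT, against 1.20, 1.22 and 1.33 in vehicle, a change of 1.19 (SE 0.0998, adjusted p = 0.000871). In each of these 3 pairs the HHT arrays lay apart from the vehicle arrays and the 2 genes were called in opposite directions as deposited. KPNA3 alone was not called with medians or spiked controls equalised, and IPO8 alone was not called from the mean of its probe sets. KPNA1 over KPNA6 changed by -0.42 (SE 0.0917, adjusted p = 0.0168), which was not called without vehicle replicate 2 (adjusted p = 0.0517) and was 0.06 from the means of probe sets. KPNA2 over KPNA1 changed by -0.08 (SE 0.0910, adjusted p = 0.529) and NUP205 over NUP188 by 0.22 (SE 0.183, adjusted p = 0.381), neither called. From the means of probe sets, however, KPNA2 over KPNA1 was called lower. The missing calls of these 2 pairs do not show that their genes responded alike. With the variance trend that the main fit uses, none of the 6 was called. The ratios had means below 4.80, the lowest mean of a probe set tested, so no probe set sets the trend there. Why the calls were lost was not tested.

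**Figure D3:**
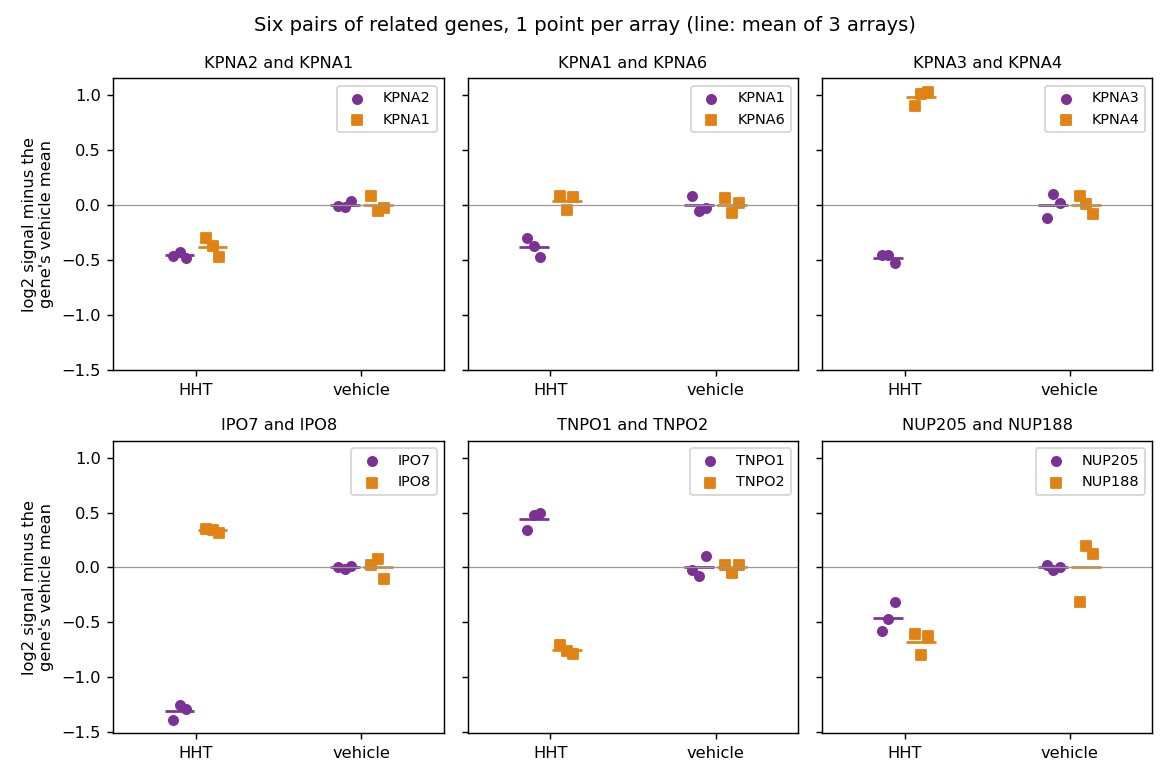
Log2 signal minus the gene's own vehicle mean (vertical axis) for 6 pairs of related genes, 1 point per array with HHT left and vehicle right, lines marking means of 3 arrays. In the IPO7 and IPO8, KPNA3 and KPNA4, and TNPO1 and TNPO2 panels the HHT points of the 2 genes lie on opposite sides of 0, while KPNA2 and KPNA1, and NUP205 and NUP188, lie below 0 together.

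Of 25 pore proteins measured, 14 fell, 6 rose and 5 were not called, beside 24.2% of all genes that fell and 29.6% that rose. The largest decrease among the 52 genes was that of NUP210, which spans the pore membrane. It had 8.92, 8.86 and 8.82 in HHT, against 11.30, 10.93 and 11.01 in vehicle, a 4.64-fold lower signal (-2.21, SE 0.104, adjusted p = 1.04e-07). Its groups lay far apart, and all 5 NUP210 probe sets fell, between -2.78 and -1.08. Equalising medians gave a change of -1.97 and equalising the spiked controls -1.93, both called.

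All 5 inner ring genes fell as deposited, with a median of -0.63. NUP35, which links the ring to the membrane, had 10.81, 10.82 and 10.82 in HHT, against 11.72, 11.81 and 11.83 in vehicle (-0.97, SE 0.0630, adjusted p = 7.43e-07). NUP188 had 8.81, 8.62 and 8.79 in HHT, against 9.10, 9.61 and 9.54 in vehicle (-0.67, SE 0.142, adjusted p = 0.00257), and NUP205, its scaffold counterpart, had 11.40, 11.51 and 11.66 in HHT, against 12.00, 11.96 and 11.98 in vehicle (-0.46, SE 0.0735, adjusted p = 0.000444). NUP155 fell by 0.63 and NUP93 by 0.40. With equal medians only NUP35 and NUP155 of the 5 were still called lower.

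In the Y complex, which forms the outer rings, 4 of 7 genes fell, 1 rose and 2 were not called. SEH1L, which the complex shares with a regulator of amino acid sensing, had 12.63, 12.62 and 12.60 in HHT, against 13.37, 13.33 and 13.41 in vehicle (-0.75, SE 0.0505, adjusted p = 9.33e-07). NUP160 fell by 0.65 (adjusted p = 0.000133), with dimmer probe sets at -1.33 and -1.59, and NUP85 fell by 0.51, though NUP85 was not called with medians (-0.27) or spiked controls (-0.22) equalised. NUP107 was at -0.18 and called as deposited, but at 0.05 with equal medians, and it was not called without HHT replicate 2. NUP43 had 12.80, 12.83 and 12.86 in HHT, against 12.63, 12.48 and 12.44 in vehicle (0.31, SE 0.0624, adjusted p = 0.00179), and its second probe set rose by 0.85. NUP37 (-0.01) and NUP133 (0.07) were not called. NUP133 was called higher with medians (0.31) and with spiked controls (0.35) equalised, and NUP37 with spiked controls equalised (0.27) and after quantile normalization (0.19).

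The 4 channel genes were divided. NUP98, which carries flexible repeats and is a partner of leukaemia fusions, had 9.93, 9.80 and 9.77 in HHT, against 10.75, 10.79 and 10.85 in vehicle (-0.96, SE 0.0782, adjusted p = 3.28e-06). The remaining NUP98 probe sets had changes of 0.02 and -0.13, neither called, so the decrease rests on 1 probe set of 3. NUP62 fell by 0.72 (adjusted p = 9.40e-05), and its second probe set fell by 0.88. NUP54, which binds NUP62 in the channel, rose by 0.25 (adjusted p = 0.00468). NUP58, the other partner of NUP62, had 10.99, 11.05 and 11.09 in HHT, against 10.03, 9.67 and 9.89 in vehicle (1.18, SE 0.0970, adjusted p = 3.57e-06). Its remaining probe sets did not follow: 1 had 6.95, 7.18 and 6.71 in HHT against 8.17, 8.24 and 8.31 in vehicle and fell by 1.30 (adjusted p = 0.000113), 1 fell by 0.39 and 1, at -0.02, was not called. The mean of the 4 was -0.13 and not called, so NUP58 has no single direction here.

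**Figure D4:**
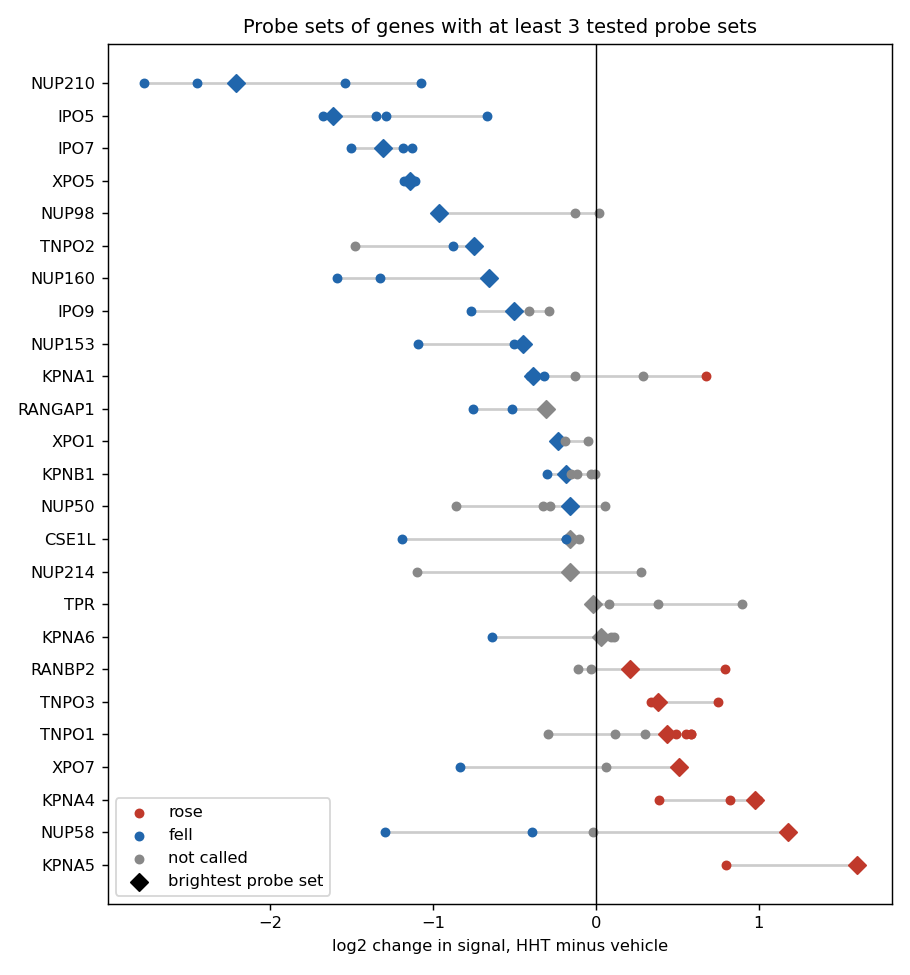
Log2 change in signal (horizontal axis, HHT minus vehicle) of each tested probe set of the 25 transport genes with at least 3, with diamonds for the brightest probe set. All 5 probe sets of NUP210 and of IPO5 fell, whereas KPNA1, XPO7 and NUP58 have probe sets called on both sides of 0.

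On the cytoplasmic side, 3 of 5 genes rose and none fell as deposited, beside 29.6% of all genes that rose and 24.2% that fell. NUP88 had 11.96, 11.94 and 11.97 in HHT, against 11.45, 11.60 and 11.35 in vehicle (0.49, SE 0.0727, adjusted p = 0.000238). RAE1, an mRNA export factor that binds NUP98, had 13.35, 13.33 and 13.26 in HHT, against 12.93, 12.82 and 12.91 in vehicle (0.43, SE 0.0548, adjusted p = 8.48e-05), and its second probe set rose by 0.49. RANBP2, the large filament protein that binds Ran and sumoylated RANGAP1, was at 0.21 (adjusted p = 0.0486), close to the threshold, and was not called without any 1 of HHT replicates 1 to 3 or vehicle replicates 1 and 3. A further RANBP2 probe set rose by 0.80, but another pair had changes of -0.11 and -0.03, neither called, and averaging all of them lost the call. NUP214 (-0.16, adjusted p = 0.209) and NUP42 (-0.21, adjusted p = 0.0798) were not called, but NUP42 was called lower after quantile normalization (-0.33). Of the 3 basket genes, NUP153 fell by 0.45 (adjusted p = 4.54e-05) and NUP50 by 0.16 (adjusted p = 0.0241), and TPR, at -0.02, was not called. NUP153 was not called with medians (-0.21) or spiked controls (-0.16) equalised, and TPR was called higher with spiked controls equalised (0.27). NUP50 was above 0 under the 3 other scalings, at 0.08, 0.12 and 0.01, and was not called there, nor without any 1 of HHT replicates 1 to 3 or vehicle replicates 2 and 3.

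Across probe sets rather than genes, 146 of the 161 were tested, of which 71 fell, 29 rose and 46 were not called. Over all probe sets tested, 23.3% fell and 23.0% rose. Of 42 transport genes with more than 1 tested probe set, 21 had all of them called in 1 direction and 32 had all changes of 1 sign. In 3 (KPNA1, XPO7 and NUP58) probe sets were called in opposite directions. Such counts are not given here for all genes, so whether these are usual for the array cannot be said. The probe sets of a gene can lie on different parts of its transcripts, and which transcript each detects was not analysed here.

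Of 46 transport genes listed outside the symbol rule, 36 were tested. As deposited, 11 fell and 8 rose, with a median change of -0.04, against 24.2% and 29.6% of all genes. With equal medians 7 fell and 11 rose (all genes: 12.7% and 37.3%). With equal hybridisation controls 7 fell and 16 rose (all genes: 12.8% and 41.6%). The balance of the list thus turned with the scaling, and the shares of all genes moved the same way. The 3 largest decreases were those of NDC1, ALYREF and NXT1. NDC1, which with NUP210 belongs to the membrane proteins of the pore, had 11.39, 11.46 and 11.47 in HHT, against 13.00, 12.80 and 12.69 in vehicle (-1.39, SE 0.0786, adjusted p = 3.22e-07). ALYREF, an adaptor of mRNA export, fell by 1.07 (adjusted p = 9.59e-08) and NXT1, a subunit of the mRNA export receptor, by 0.85 (adjusted p = 1.33e-05). The 3 largest increases were those of GLE1, SENP1 and PHAX. GLE1, which acts in mRNA export on the cytoplasmic face of the pore, had 12.08, 12.11 and 12.09 in HHT, against 11.05, 10.98 and 11.23 in vehicle (1.01, SE 0.0739, adjusted p = 1.64e-06). SENP1, a SUMO protease, rose by 0.83 (adjusted p = 1.13e-05) and PHAX, an adaptor in the export of small nuclear RNA, by 0.77 (adjusted p = 7.14e-05). By group and as deposited, beside the same 24.2% and 29.6% of all genes, 7 of 17 mRNA export genes fell and 3 rose, 3 of 8 further pore components fell and 1 rose, none of 8 adaptors and further receptors fell and 3 rose, and of 3 SUMO pathway genes 1 fell and 1 rose.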

How the data were processed

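RNA from 6 samples was hybridised to 3′ arrays, 1 sample each. Every array has a deposited log2 signal for each probe set, made with MAS5 per the submitters' processing notes (version not given in the sources used here). Their mean antilog signal after trimming 2% at each end was 500.06 to 500.07 on every array. Arrays give no read depth, and their number limits the precision.

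The 62 control probe sets and the 40% of the others with the lowest mean over the 6 arrays (below 4.80) were left out, and 32768 were tested with limma 3.58.1 in R 4.3.3 (lmFit, eBayes with a variance trend), with Benjamini-Hochberg adjustment over all of them. Names come from the platform annotation, matched by Entrez ID to RefSeq (GRCh38.p14). Each gene is represented by the brightest probe set annotated to it alone. Ratios of 6 pairs were added as rows to the same table and fitted without trend. Named genes were 8 core transport genes, the 10 largest increases and decreases, genes with opposed probe sets, the pair members and the 3 largest changes of other transport genes in each direction. The symbol rule uses no measured value, but it, the lists and the tests were chosen with earlier results of these data known. The fit was checked on simulated data with known changes. Alternatives are described in the closing section. No array duplicated another: arrays shared 26 to 103 equal values of 54675.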

Additional observations from a re-analysis of the deposited data

Results flagged for a closer look

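Of the probe sets annotated to more than 1 gene, which stayed out of the comparison, 3 that include IPO11, an import receptor of the beta family, had higher signal in HHT than in vehicle. The probe set shared with LRRC70 had 9.79, 9.93 and 9.97 in HHT, against 8.02, 8.22 and 8.11 in vehicle, and rose by 1.78 (limma adjusted p = 4.37e-07). Those shared with the readthrough transcript IPO11-LRRC70 rose by 0.56 (adjusted p = 0.000366) and by 0.36 (adjusted p = 0.0385). The single-gene probe set of IPO11 lay below the filter level, with 2.37, 2.90 and 4.64 in HHT and 5.10, 4.48 and 3.36 in vehicle, and was not tested. Which of the overlapping transcripts carried the signal was not tested.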

How the results depend on the processing

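Of the 52 tested transport genes, 30 fell and 13 rose as deposited (all genes: 24.2% and 29.6%). With equal medians 16 fell (all genes: 12.7%), and 8 rose from the means of a gene's probe sets (all genes: 3475 of 13572). An absolute log2 change of at least 1 left 2 that rose and 7 that fell, against 1297 and 806 of all 13572 genes. With equal medians 7 of the other transport genes fell (all genes: 12.7%). With equal hybridisation controls 16 of them rose and 7 fell (all genes: 41.6% and 12.8%). At a change of at least 1, 1 of them rose and 2 fell, against the same 1297 and 806 genes. Leaving out each array in turn gave 11 to 13 transport genes that rose and 28 to 30 that fell. The other transport genes gave 7 to 8 and 9 to 11. Of all 13582 to 13599 genes tested in those fits, 3573 to 3945 rose and 2892 to 3210 fell. KPNB1 was at 0.0560, 0.10 and 0.21, XPO1 at 0.0058, 0.0507 and 0.14, and CSE1L at 0.0784, 0.12 and 0.17 under equal medians, equal hybridisation controls and quantile normalization. KPNA6 was called at 0.32 with equal hybridisation controls, and was at -0.0792 after quantile normalization and -0.10 from means of probe sets, where NUP58 was at -0.13 and XPO7 at -0.0866. Leaving out arrays, KPNA6 ran from -0.0033 to 0.0760. From means of probe sets the KPNA1 over KPNA6 ratio was 0.0564 and KPNA2 over KPNA1 was called at -0.51 (adjusted p = 0.00649). With a variance trend the ratios of KPNA1 over KPNA6 (-0.42), KPNA3 over KPNA4 (-1.46), IPO7 over IPO8 (-1.65) and TNPO1 over TNPO2 (1.19) were not called. Leaving out arrays, KPNA1 over KPNA6 ran from -0.46 to -0.35. Replicate numbers do not pair the arrays: deviations of same-numbered arrays correlated at 0.07, -0.01 and 0.05. With the replicate block 31 transport genes fell, CSE1L among them (adjusted p = 0.0348), and 13 rose. Of all 13572 genes 3333 fell and 4061 rose in that fit. A pseudocount of 64, leaving out no probe sets or 60% of them, dropping the variance trend, and an adjusted p under 0.01 kept these counts within 1.5 times. The causes of these differences were not tested.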

Other observations

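NUTF2, which carries Ran back into the nucleus, shares its probe sets with its pseudogene NUTF2P4. The brighter of these had 11.66, 11.87 and 11.91 in HHT, against 13.09, 13.04 and 13.06 in vehicle, and fell by 1.25 (limma adjusted p = 3.25e-07). The dimmer fell by 0.87 (adjusted p = 0.000933). Of the remaining probe sets with several genes, that of NUP62 with IL4I1 (0.02) and that of RANBP2 with its RGPD relatives (0.29) were not called.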
